A study of Mus musculus with 7 samples.

Results

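The 10 genes described here belong to retinal blood vessels and their growth, and were followed in 7 mouse eye libraries of 3 Agbl5 genotypes. They were chosen by name, as Pecam1, Cdh5, Cldn5, Kdr, Flt1, Tie1 and Tek for endothelial cells, Pdgfrb and Rgs5 for pericytes, and Vegfa as the main growth factor. All 10 were present among the 54532 genes of the table. Of them 8 were among the 15472 tested, whose mean over the 7 libraries reached 1 FPKM (fragments scaled by exon length and library depth). Tie1 and Cdh5 lay below that level.

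The libraries were made from polyadenylated RNA, 3 of them knockout, 2 heterozygous and 2 wildtype for Agbl5, the gene of the tubulin deglutamylase CCP5, which cuts the branch-point glutamates. Per the series description, the knockout served to study the gene in photoreceptors. The tissue label was eyeball and the extraction protocol named retina. Strain, age, sex and the way the allele was made were not given in the sources used here. Nor was it said whether the replicates of a genotype were separate animals. Y-linked transcripts, given below, set knockout 3 and wildtype 2 apart in sex from the others of their genotype. For the other replicates this stayed unknown. The p-values thus measure only the spread between these libraries, part of which may be technical.

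Vessels of the mouse retina are tubes of endothelial cells wrapped by pericytes. Vegfa, secreted by glia and neurons and induced when oxygen is short, binds Kdr (VEGFR2), the main signalling receptor for endothelial growth, and Flt1 (VEGFR1), which binds the ligand tightly, signals weakly and limits its supply. Tek (TIE2) is the receptor of the angiopoietins and Tie1 its related partner, and together they control vessel maturation and stability. Pecam1, Cdh5 (VE-cadherin) and Cldn5 (claudin 5) sit at endothelial cell contacts, Cldn5 being the main tight junction claudin of the blood-retina barrier. Pdgfrb is the receptor through which endothelial PDGF-B recruits pericytes, and Rgs5, a regulator of G protein signalling, is a usual pericyte marker.

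The stretches just before the transcription starts of Vegfa and of its 2 receptor genes are shown because Vegfa and Kdr had the highest levels of the set and Flt1 binds the same ligand. They are the 250 bases before the start, 5′ to 3′ on the minus strand that each gene uses, from RefSeq on GRCm38.p6, at chr17:46032378-46032627 for Vegfa, chr5:75978456-75978705 for Kdr and chr5:147726012-147726261 for Flt1. Capitals mark matches on either strand to the core GGAAG of ETS factors, which act in endothelial genes, to the hypoxia response core ACGTG and to the GATA core GATAA.
Vegfa: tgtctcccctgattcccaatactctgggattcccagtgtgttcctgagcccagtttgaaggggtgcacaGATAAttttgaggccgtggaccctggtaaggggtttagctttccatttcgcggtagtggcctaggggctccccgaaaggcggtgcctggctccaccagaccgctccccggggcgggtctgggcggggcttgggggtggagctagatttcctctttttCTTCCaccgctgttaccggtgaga
Kdr: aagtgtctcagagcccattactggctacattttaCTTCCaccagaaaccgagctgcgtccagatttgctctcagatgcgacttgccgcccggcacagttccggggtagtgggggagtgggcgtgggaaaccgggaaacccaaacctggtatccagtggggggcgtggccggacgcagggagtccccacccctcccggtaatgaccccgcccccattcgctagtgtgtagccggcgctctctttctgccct
Flt1: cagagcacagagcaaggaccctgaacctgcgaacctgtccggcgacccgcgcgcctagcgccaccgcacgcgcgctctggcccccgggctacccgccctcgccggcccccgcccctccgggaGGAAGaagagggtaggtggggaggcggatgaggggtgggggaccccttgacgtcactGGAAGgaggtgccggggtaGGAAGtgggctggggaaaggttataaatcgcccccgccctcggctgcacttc
The Flt1 stretch held 3 matches to GGAAG, the Kdr stretch 1 and the Vegfa stretch 1, and Vegfa also held 1 match to GATAA. None of the 3 held ACGTG. The entries used covered 7 of the 10 genes, as 8 starts, since Vegfa had a second one. GGAAG lay in 5 of these 8 and in 64.1% of all 32851 promoters of the table, with 6 matches for Tie1 and 0 for Tek, Cldn5 and Rgs5. GATAA lay in 2 of the 8 (Vegfa and Rgs5) and in 22.6% of all, and ACGTG in 1 of the 8 (the second Vegfa start) and in 16.6% of all. The stretch of that second start, chr17:46025164-46025413, lies inside the Vegfa gene. The 3 motifs share no letters in these stretches, and a match describes letters, not binding.

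The deposited FPKM could be turned back into whole reads, 12866260 to 15072526 per library, so that each read of a 1-kilobase transcript was worth 0.0663 to 0.0766 FPKM. Agbl5 stood at 1.53, 1.73 and 1.26 FPKM in knockout, at 4.21 and 5.34 in heterozygous and at 9.89 and 8.57 in wildtype libraries, lowest where the labels say knockout. Lens transcripts set 1 knockout and 1 heterozygous library apart, with a summed level of the 13 lens markers of 7010 FPKM in knockout 1 and 3934 in heterozygous 1, against 5.99 to 46.8 in the other 5 libraries. The 4 Y-linked markers were listed at 0 in knockout 3 and wildtype 2 and summed to 51.7 to 63.1 FPKM elsewhere. Sex was therefore mixed within the knockout and wildtype groups, and these libraries came from other animals than the rest of their genotype. Retinal identity was strong in every library, with a summed rod marker level of 7116 to 7223 FPKM in knockout, 7816 to 8948 in heterozygous and 7819 to 7951 in wildtype libraries.

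Vegfa, the ligand, had the highest level of the set and overlapped between the 3 genotypes. Vegfa (ENSMUSG00000023951, chromosome 17, 46016993 to 46032369 on the minus strand of GRCm38, 8 merged exons over 4285 bases) was at 45.0, 50.7 and 40.7 FPKM in knockout, 40.2 and 45.7 in heterozygous and 50.01 and 40.5 in wildtype libraries. The highest value (knockout 2) and the lowest (heterozygous 1) were 1.26-fold apart. The knockout mean was 45.5 ± 5.00 FPKM (SD, n = 3), against 44.1 ± 4.67 in the 4 heterozygous and wildtype libraries, called all controls here (n = 4). The log2 change, on the log2(FPKM + 1) scale used throughout, was 0.044 ± 0.10 (SE; limma, adjusted p = 0.892, 95% interval -0.19 to 0.28). Because tissue was measured in bulk, fewer cells of a type and less RNA per cell cannot be told apart for this or any other gene of the set.

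Kdr, the main VEGF receptor, was the second most abundant of the set. Of the 8 tested it was the only one whose knockout libraries all lay above both wildtype libraries. Knockout and wildtype did not overlap, in either direction, for 28.2% of all tested genes. Kdr (ENSMUSG00000062960, chromosome 5, 75932827 to 75978458, minus strand, 29 merged exons over 9030 bases) was at 19.3, 21.5 and 19.9 FPKM in knockout, 23.8 and 15.7 in heterozygous and 16.7 and 18.2 in wildtype libraries. The heterozygous pair spanned the whole range, with heterozygous 1 the highest and heterozygous 2 the lowest of all 7. Against wildtype the knockout mean was 20.2 ± 1.16 (SD, n = 3) against 17.4 ± 1.07 FPKM (n = 2), a log2 change of 0.20 ± 0.16 that did not pass the test (limma, adjusted p = 0.836, interval -0.18 to 0.59). Against heterozygous, at 19.7 ± 5.77 FPKM (n = 2), it was 0.061 ± 0.16 (adjusted p = 0.898), and against all controls, at 18.6 ± 3.64 FPKM (n = 4), it was 0.13 ± 0.13 (adjusted p = 0.715). That value moved to 0.25 without heterozygous 1 and to 0.061 without heterozygous 2. Mouse retinal neurons also transcribe Kdr, so its level is not one of vessels alone.

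Flt1, the second VEGF receptor, overlapped between genotypes. Flt1 (ENSMUSG00000029648, chromosome 5, 147561604 to 147726011, minus strand, 33 merged exons over 13504 bases) was at 5.23, 4.57 and 4.98 FPKM in knockout, 5.44 and 4.03 in heterozygous and 5.08 and 5.57 in wildtype libraries. Heterozygous 2 was the lowest and wildtype 2 the highest. The mean was 4.93 ± 0.334 FPKM in knockout (SD, n = 3) and 5.03 ± 0.699 in all controls (n = 4), a log2 change of -0.018 ± 0.10 (limma, adjusted p = 0.958, interval -0.26 to 0.22). Kdr stood above Flt1 in every library, by 3.26- to 4.71-fold in FPKM.

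**Figure D1:**
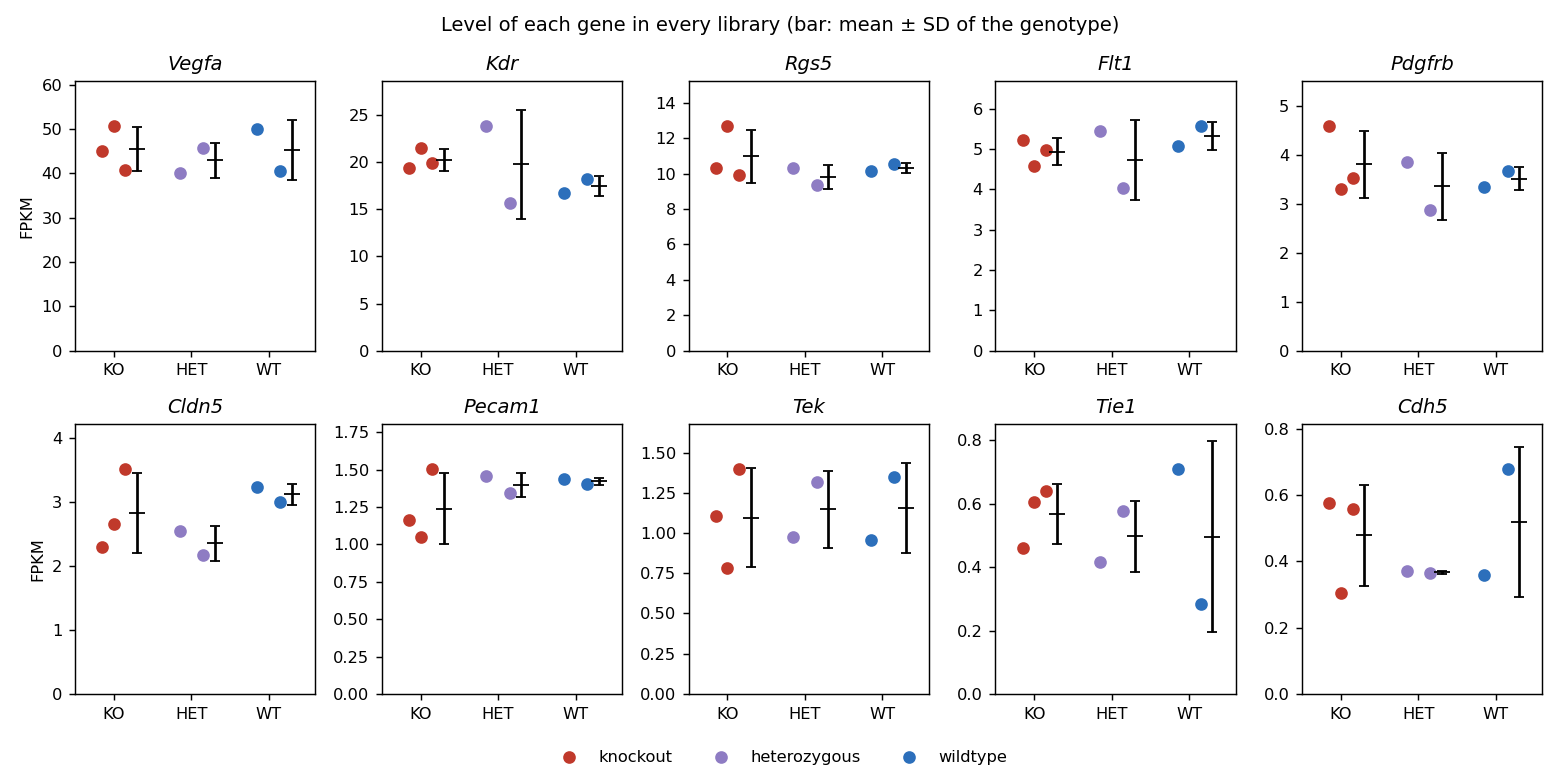
Levels of the 10 genes in FPKM, in 1 panel per gene with its own linear axis from 0, with 1 point per library (KO, knockout; HET, heterozygous; WT, wildtype) and the mean ± SD of each genotype as a bar. The genotypes overlap in most panels, the knockout points of Kdr (19.3 to 21.5 FPKM) lie above both wildtype points (16.7 and 18.2), and both Cldn5 points of heterozygous lie below both of wildtype.

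The angiopoietin receptors were low. Tek (ENSMUSG00000006386, chromosome 4, 94739289 to 94874976, plus strand, 23 merged exons over 4712 bases) was at 1.11, 0.782 and 1.40 FPKM in knockout, 0.977 and 1.32 in heterozygous and 0.958 and 1.35 in wildtype libraries. Each genotype held a low and a high library, and the knockout libraries held both the lowest and the highest value. The means were 1.10 ± 0.307 FPKM in knockout (SD, n = 3) and 1.15 ± 0.212 in all controls (n = 4), a log2 change of -0.043 ± 0.14 (limma, adjusted p = 0.925, interval -0.38 to 0.29). Tie1 (ENSMUSG00000033191, chromosome 4, 118471191 to 118490061, minus strand, 22 merged exons over 4917 bases) was at 0.461, 0.605 and 0.640 FPKM in knockout, 0.418 and 0.577 in heterozygous and 0.709 and 0.283 in wildtype libraries. Both extremes were wildtype, from 21 to 51 reads in that genotype. In a fit without the minimum level its change against all controls was 0.075 ± 0.12 (limma, adjusted p = 0.861). On the recovered reads, with voom of limma, it was 0.27 ± 0.31 with an interval from -0.40 to 0.95.

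The genes of endothelial cell contacts also showed no call. Pecam1 (ENSMUSG00000020717, chromosome 11, 106654217 to 106750628, minus strand, 17 merged exons over 6228 bases) was at 1.17, 1.05 and 1.503 FPKM in knockout, 1.46 and 1.34 in heterozygous and 1.44 and 1.41 in wildtype libraries. Knockout 1 and knockout 2 lay below all 4 controls and knockout 3 above them all. The means were 1.24 ± 0.237 FPKM in knockout (SD, n = 3) and 1.41 ± 0.0504 in all controls (n = 4), a log2 change of -0.11 ± 0.11 (limma, adjusted p = 0.704, interval -0.36 to 0.14). It was -0.050 without knockout 2 and -0.19 without knockout 3. Cdh5 (ENSMUSG00000031871, chromosome 8, 104101625 to 104144511, plus strand, 13 merged exons over 4203 bases) was at 0.576, 0.304 and 0.557 FPKM in knockout, 0.371 and 0.365 in heterozygous and 0.358 and 0.678 in wildtype libraries, from 18 to 43 reads. Knockout 1, knockout 3 and wildtype 2 stood above 0.5 FPKM and the other 4 libraries below 0.4. Its change against all controls was 0.036 ± 0.12 without the minimum level (limma, adjusted p = 0.935) and 0.092 ± 0.33 on recovered reads (interval -0.63 to 0.82).

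Cldn5 (ENSMUSG00000041378, chromosome 16, 18776847 to 18778262, plus strand, 1 exon of 1416 bases) was at 2.30, 2.65 and 3.51 FPKM in knockout, 2.55 and 2.16 in heterozygous and 3.24 and 3.00 in wildtype libraries. Its short transcript gave only 40 to 68 reads per library. The highest library was knockout 3 and the lowest heterozygous 2, and both heterozygous libraries lay below both wildtype ones. Against all controls the mean was 2.82 ± 0.625 FPKM in knockout (SD, n = 3) and 2.74 ± 0.476 in controls (n = 4), a log2 change of 0.028 ± 0.14 (limma, adjusted p = 0.952). Between heterozygous, at 2.36 ± 0.273 FPKM, and wildtype, at 3.12 ± 0.168 FPKM (n = 2 each), the change was -0.30 ± 0.16 and did not pass (adjusted p = 0.974, interval -0.69 to 0.096).

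The pericyte genes overlapped between genotypes as well. Rgs5 (ENSMUSG00000026678, chromosome 1, 169655501 to 169695813, plus strand, 6 merged exons over 4546 bases) was at 10.3, 12.7 and 9.94 FPKM in knockout, 10.3 and 9.34 in heterozygous and 10.1 and 10.5 in wildtype libraries. Knockout 2 stood above the other 6 libraries, which lay within 9.34 and 10.5 FPKM. The means were 11.0 ± 1.497 FPKM in knockout (SD, n = 3) and 10.1 ± 0.518 in all controls (n = 4), a log2 change of 0.11 ± 0.087 (limma, adjusted p = 0.649, interval -0.096 to 0.31). Without knockout 2 the change was 0.0070, and without knockout 3 it was 0.17. Pdgfrb (ENSMUSG00000024620, chromosome 18, 61045150 to 61085061, plus strand, 24 merged exons over 5478 bases) was at 4.60, 3.31 and 3.54 FPKM in knockout, 3.85 and 2.88 in heterozygous and 3.36 and 3.68 in wildtype libraries. Its highest library was knockout 1 and its lowest heterozygous 2. The means were 3.82 ± 0.685 FPKM in knockout (n = 3) and 3.44 ± 0.427 in all controls (n = 4), a log2 change of 0.11 ± 0.12 (limma, adjusted p = 0.734, interval -0.16 to 0.39). Without knockout 1 it was -0.00102. The high library differed between the 2 pericyte genes, and the ratio of Rgs5 to Pdgfrb in FPKM ran from 2.24 to 3.83 over the libraries.

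FPKM is scaled by length, so levels of different genes can be ordered. Whole reads came back with the merged exon length of each gene, which can exceed the length of a single transcript. The gaps between genes thus depend partly on the annotation. By the mean over 7 libraries the order was Vegfa at 44.7, Kdr at 19.3, Rgs5 at 10.5, Flt1 at 4.99, Pdgfrb at 3.60, Cldn5 at 2.77, Pecam1 at 1.34, Tek at 1.13, Tie1 at 0.528 and Cdh5 at 0.458 FPKM. In 5 of the 9 neighbouring pairs the ranges over the libraries did not overlap, namely Vegfa and Kdr, Kdr and Rgs5, Rgs5 and Flt1, Cldn5 and Pecam1, and Tek and Tie1. The ranges of Flt1 and Pdgfrb, of Pdgfrb and Cldn5, of Pecam1 and Tek, and of Tie1 and Cdh5 overlapped, and the order of Tie1 over Cdh5 held in 5 of 7 libraries. Although both are endothelial markers, Kdr stood 14.4-fold above Pecam1 and 42.1-fold above Cdh5 on average.

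None of the 8 tested genes passed the test in any comparison. Of all 15472 genes, 0.323% passed for knockout against wildtype, 0.317% for knockout against heterozygous, 0% for heterozygous against wildtype and 0.614% when knockout was set against all controls (limma, Benjamini-Hochberg adjusted p under 0.05). At an unadjusted p under 0.05 the count was also 0 of 8 in each comparison, where 7.5%, 12%, 4% and 12.2% of all genes passed in the same order. With voom on the recovered reads 0 of the 8 passed, against 0.513%, 0.52%, 0% and 1% of the 15002 genes of that fit. A second voom fit, on genes with at least 70 reads, held all 10 genes of the set. Of these 0 passed, against 75, 78, 0 and 152 of its 17129 genes. At these background shares, 0 of 8 does not set the genes apart from the rest. The comparisons share libraries, so their counts are not independent of each other.

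Counts of genes whose groups did not overlap were likewise no higher than those of all genes. For knockout against wildtype it was 1 of 8 (Kdr, higher) where 28.2% of all tested genes did not overlap. For knockout against heterozygous it was 0 of 8 (29.8% of all), for heterozygous against wildtype 1 of 8 (Cldn5, lower; 30% of all), and for knockout against all controls 0 of 8 (13% of all). The median log2 change of the 8 was -0.018 for knockout against wildtype, 0.07 for knockout against heterozygous, -0.063 for heterozygous against wildtype and 0.036 when knockout was set against all controls. The medians of all tested genes were -0.0034, 0.0061, -0.0068 and 0.0027 in the same order. For knockout against all controls 5 of the 8 were higher and 3 lower, beside 7863 higher and 7609 lower of all tested genes.

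**Figure D2:**
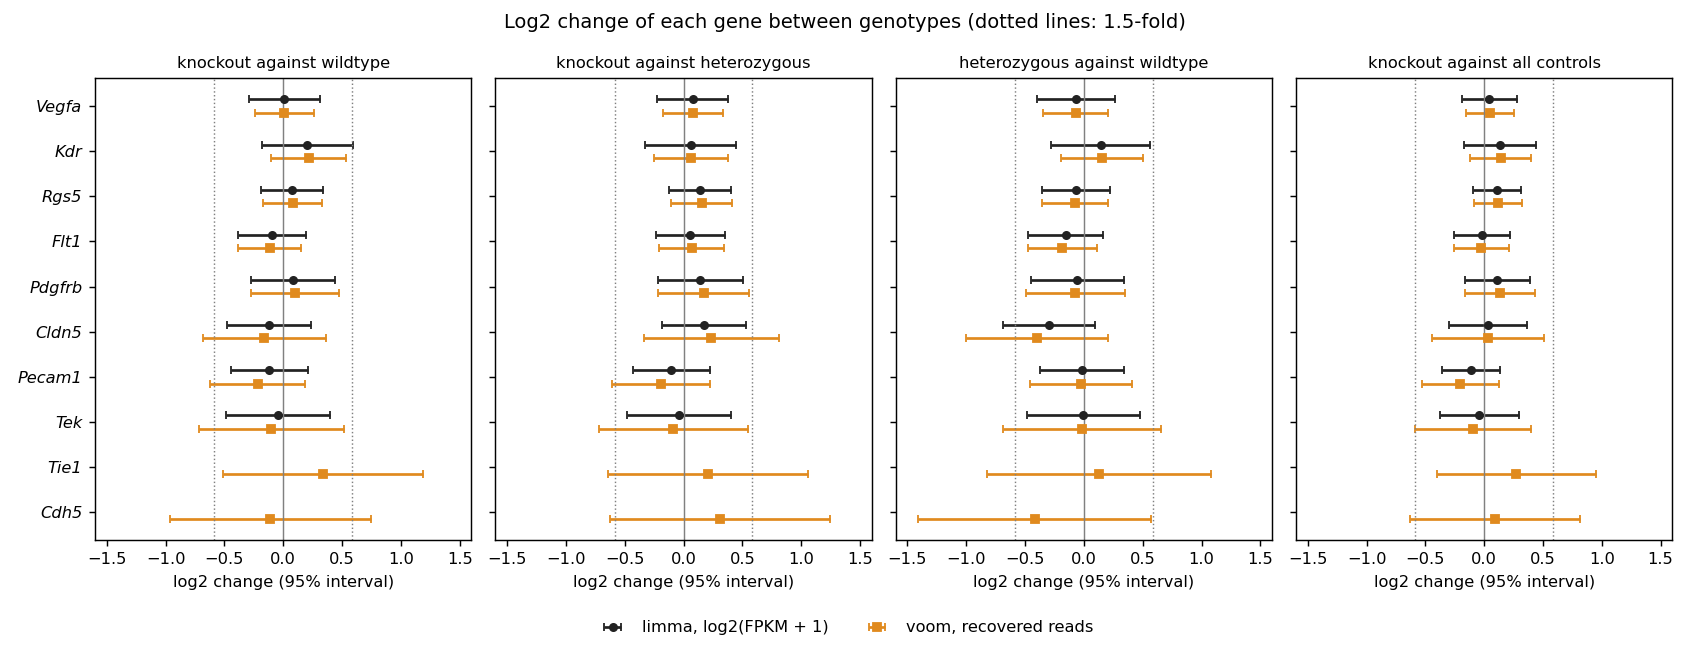
Log2 changes with 95% intervals, from limma on log2(FPKM + 1) for the 8 tested genes (circles) and from voom on recovered reads for all 10 (squares), for knockout against wildtype, knockout against heterozygous, heterozygous against wildtype and knockout against all controls. Dotted lines mark a 1.5-fold change, every interval spans 0, and the limma intervals for knockout against all controls run between -0.38 (Tek) and 0.44 (Kdr).

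A p that misses the threshold does not show equal levels, so the intervals give what sizes the data leave possible. For knockout against all controls, the 95% intervals of all 8 tested genes lay within a 1.5-fold change in either direction on the log2(FPKM + 1) scale. The same held for 8 of 8 for knockout against heterozygous, for 7 of 8 for knockout against wildtype (Kdr reached 0.59) and for 7 of 8 for heterozygous against wildtype (Cldn5 reached -0.69). In all 4 comparisons they lay within 2-fold. That scale shrinks changes of low genes. On recovered reads, with no such shrinkage, 7 of 10 intervals lay within 1.5-fold for knockout against all controls, the exceptions being Cdh5, Tek and Tie1, and 10 of 10 within 2-fold. The genotype pairs left more room on recovered reads. For knockout against wildtype 5 of 10 lay within 1.5-fold and 9 of 10 within 2-fold, Tie1 reaching 1.19 in log2. For knockout against heterozygous it was 5 and 8 of 10, with Cdh5 reaching 1.24 and Tie1 1.06. For heterozygous against wildtype it was 6 and 7 of 10, with Cdh5 reaching -1.41, Tie1 1.08 and Cldn5 -1.0001.

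The spread between libraries exceeded what read counting alone gives, most for the abundant genes. Kdr had a coefficient of variation of 14.5% over the 7 libraries where its read numbers give 2.03%, and Vegfa 9.95% where they give 1.93%. For Flt1 it was 10.7% against 3.25%, for Rgs5 10.1% against 3.88% and for Pdgfrb 14.9% against 6.02%. Cldn5 (17.9% against 13.5%) and Pecam1 (12.6% against 9.26%) were nearest to the counting error. Tek, Tie1 and Cdh5 varied most, by 20.8%, 27.9% and 31.2%, with counting errors of 11.6%, 16.6% and 19.2%. The counting error takes each read as an independent molecule, which libraries without molecular identifiers cannot show.

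**Figure D3:**
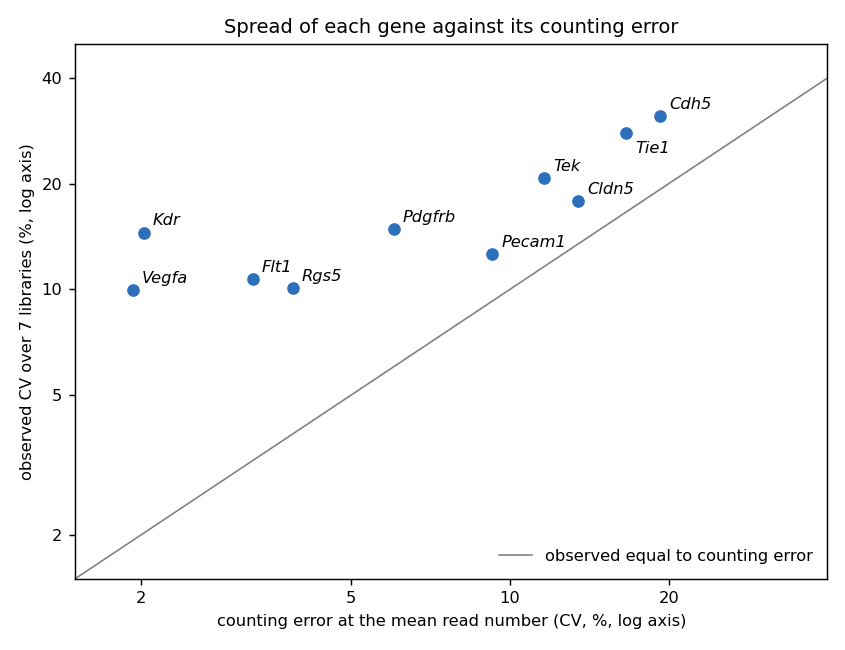
Coefficient of variation (CV) of each gene over the 7 libraries, in percent, against the CV that counting its mean number of reads alone would give, both on log axes, with a line where they are equal. All 10 points lie above the line, and Kdr (14.5% against 2.03%) and Vegfa (9.95% against 1.93%) lie farthest above it.

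The genes did not share 1 pattern over the libraries. Heterozygous 2 was the lowest library for 5 of the 10 (Kdr, Rgs5, Flt1, Pdgfrb and Cldn5), at 78.1% to 89.3% of each gene's own mean, while its Tek stood at 116.9% and its Tie1 at 109.3%. Knockout 3 was the highest for Cldn5, Pecam1 and Tek, at 112.5% to 126.7%. Knockout 2 was the highest for Vegfa and Rgs5 and the lowest for Pecam1, Tek and Cdh5. In the knockout libraries the mean standardized level of the 7 endothelial genes was -0.15, -0.57 and 0.75 SD. It was 0.10 and -0.56 in the heterozygous and 0.085 and 0.34 in the wildtype libraries. Knockout 3 was the highest, and knockout 2 (-0.566) and heterozygous 2 (-0.561) were nearly equal at the low end. Neither of the 2 lens-rich libraries, knockout 1 and heterozygous 1, was at an end of that order. By summed FPKM of the same 7 genes, where Kdr weighs most, heterozygous 1 was the highest at 35.0 and heterozygous 2 the lowest at 25.5. Knockout 3 and wildtype 2, the highest by the standardized level, were the libraries whose Y-linked markers were listed at 0. The causes of these orders were not tested.

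**Figure D4:**
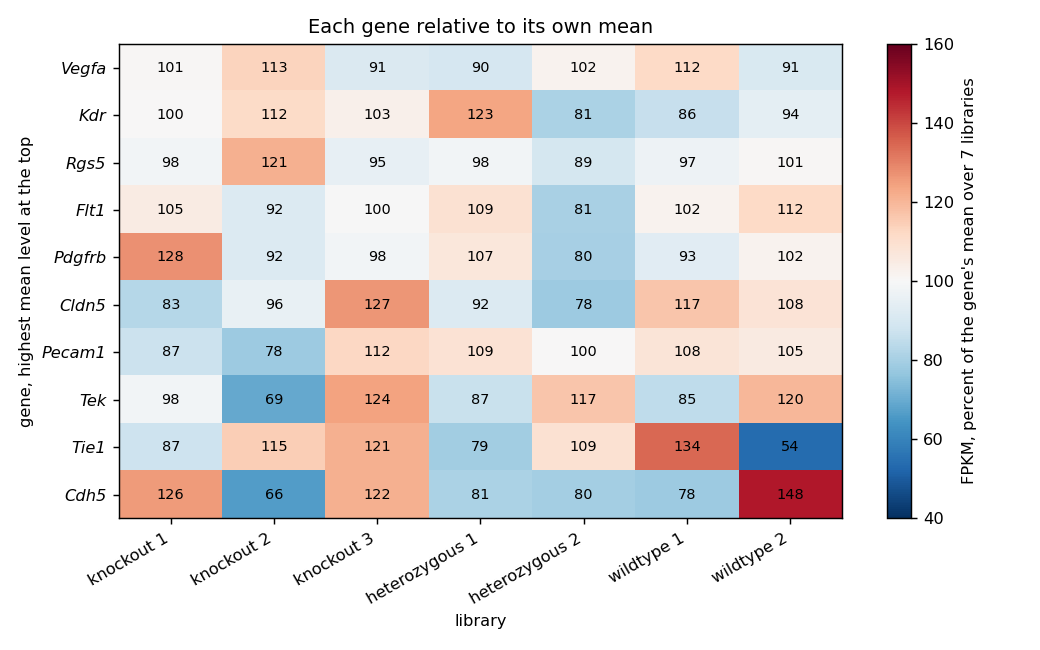
Level of each of the 10 genes in each library as a percent of its own mean over the 7 libraries, as numbers and colours, with 1 column per library and 1 row per gene. Heterozygous 2 lies at 78.1% to 89.3% for Kdr, Rgs5, Flt1, Pdgfrb and Cldn5, and Tie1 of wildtype 2 is the lowest entry at 53.7%.

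Other tissue could bring vessels of its own, so marker levels are given beside these values, and their part in them was not tested. The 13 pigment epithelium and melanocyte markers summed to 314, 133 and 199 FPKM in knockout, 282 and 172 in heterozygous and 95.3 and 203 in wildtype libraries. The 5 red blood cell markers summed to 43.5, 38.9 and 31.1 in knockout, 32.7 and 49.5 in heterozygous and 68.6 and 47.4 in wildtype libraries. The 5 fibroblast and sclera markers summed to no more than 8.56 FPKM in any library. Some glial and immune markers followed genotype. The 8 microglia and macrophage markers summed to 31.6 to 36.3 FPKM in knockout, against 15.9 to 17.5 in all controls, and the 4 astrocyte markers to 22.9 to 30.7 in knockout, against 9.05 to 16.5 in all controls. The 5 markers of Müller glia summed to less in knockout (746 to 790 FPKM) than in all controls (794 to 858), while their mean log2 level overlapped, at 6.04 to 6.23 in knockout and 6.03 to 6.32 in all controls. The 7 endothelial genes of the set summed to 30.2 to 32.4 FPKM in knockout, 25.5 to 35.0 in heterozygous and 28.5 to 30.5 in wildtype libraries, and the 2 pericyte genes to 13.5 to 16.0, 12.2 to 14.1 and 13.5 to 14.2 FPKM in those groups. Kdr, which is not of vessels alone, made up most of the endothelial sum. It ran from 15.7 FPKM in heterozygous 2 to 23.8 in heterozygous 1, the libraries at the ends of that sum.

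Among the 9051 genes whose mean reached 5 FPKM, the ones whose standardized profile over the 7 libraries lay closest to the mean profile of the 7 endothelial genes were Abca2, Nol6, Ubxn2b, Sorbs3 and Foxn3. Their root mean square differences from it were 0.148, 0.204, 0.237, 0.271 and 0.306 SD. Closest to Vegfa were Klhl18 at 0.199, Ndel1 at 0.277 and Gramd1a at 0.319 SD, with 1 predicted gene passed over. With 7 libraries and this many genes, close profiles are a description only.

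The 7 further lists of vascular genes held 70 tested genes, of which 1 passed the test in 1 comparison. The counts called were 0 for knockout against wildtype, 0 for knockout against heterozygous, 0 for heterozygous against wildtype and 1 when knockout was set against all controls. The 1 of 70 is 1.43%, beside 0.614% of all tested genes. At an unadjusted p under 0.05 the counts were 7, 9, 3 and 10 of 70 in that order, that is 10%, 12.9%, 4.29% and 14.3%, near the 7.5%, 12%, 4% and 12.2% of all tested genes. The median log2 changes were 0.041, 0.054, -0.03 and 0.053. The gene called was Podxl, which encodes podocalyxin, a sialomucin of the endothelial lumen that other cell types carry too. It was at 45.2, 46.8 and 46.6 FPKM in knockout, 36.6 and 36.9 in heterozygous and 38.9 and 38.2 in wildtype libraries. Its knockout libraries did not overlap the controls, as for 13% of all tested genes. The log2 change against all controls was 0.29 ± 0.044 (SE; limma, adjusted p = 0.0387), and it was called in 5 of 17 alternatives. With any 1 library left out the call was lost (adjusted p 0.0661 to 0.195) while the change stayed at 0.28 to 0.31. On the TPM scale (FPKM rescaled to equal sums), which lowers the median of all genes to -0.12, it was 0.17 (adjusted p = 0.398).

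The other endothelial genes are mostly rare in these libraries, with 6 of 24 at a mean of at least 1 FPKM, of which 5 were higher and 1 lower for knockout against all controls (median log2 change 0.13, 1 called). Plvap, a protein of fenestrated endothelium that the retina proper lacks and the choroid carries, was at 3.12 ± 0.709 FPKM in knockout (SD, n = 3) and 3.00 ± 0.382 in all controls (n = 4; limma, adjusted p = 0.935). Of the mural genes, 6 of 13 were tested, 3 higher and 3 lower, with 0 called. Acta2, the smooth muscle actin gene, was at 18.1, 1.27 and 1.23 FPKM in knockout, 29.6 and 7.10 in heterozygous and 1.19 and 12.5 in wildtype libraries. It was highest in the 2 lens-rich libraries and followed no genotype. Higd1b, a pericyte gene, was at 2.01 ± 0.284 FPKM in knockout (n = 3) and 0.881 ± 0.418 in heterozygous libraries (n = 2), from 7 to 27 reads over all libraries, and did not pass (log2 change 0.69, adjusted p = 0.265). Mcam, an adhesion molecule of mural and endothelial cells whose exons overlap Gm10687 on the other strand, was at 2.64 ± 0.282 in knockout and 1.96 ± 0.155 in all controls (adjusted p = 0.269).

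**Figure D5:**
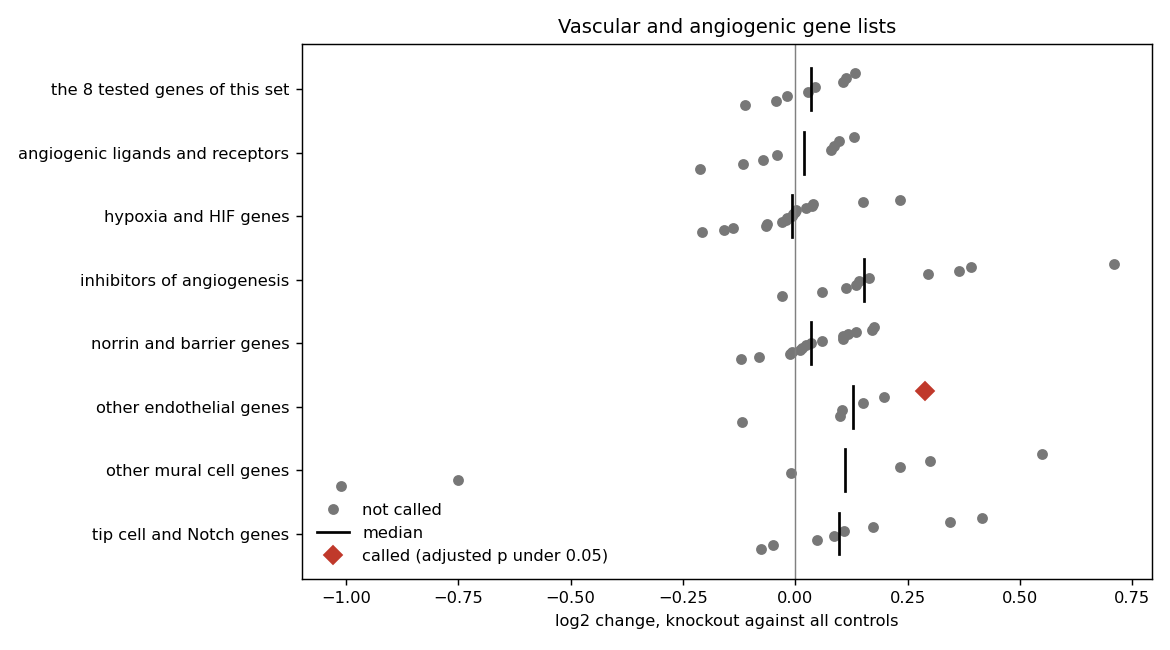
Log2 changes on the log2(FPKM + 1) scale for knockout against all controls, with 1 row per list and 1 point per tested gene of the 10-gene set and of the 7 further vascular lists, and a bar at each list's median. The medians lie between -0.0075 (hypoxia and HIF genes) and 0.15 (inhibitors of angiogenesis), and the single gene past the test is Podxl at 0.29.

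Of the other angiogenic ligands and receptors 8 were tested, 4 higher and 4 lower for knockout against all controls (median 0.019, 0 called). Vegfb, a ligand of Flt1, was at 17.7 ± 2.71 FPKM in heterozygous and 21.2 ± 1.53 in wildtype libraries (n = 2 each; log2 change -0.25, adjusted p = 0.974). Acvrl1 (ALK1), an endothelial receptor of the TGF-beta family whose exons overlap Gm16031, was at 1.86 ± 0.471 in knockout and 2.28 ± 0.116 in all controls (adjusted p = 0.531). Nrp1, a co-receptor of Kdr, was at 1.35 ± 0.114 in knockout and 1.19 ± 0.0323 in all controls (adjusted p = 0.709). Angpt2, the angiopoietin that destabilizes vessels, lay below the tested level, at 0.828 ± 0.120 FPKM in knockout and 0.792 ± 0.0714 in all controls.

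Of the tip cell and Notch genes 8 were tested, 6 higher and 2 lower for knockout against all controls (median 0.097, 0 called), and the 2 with the smallest p did not pass. Hey2, a transcriptional repressor downstream of Notch, was at 4.43, 4.07 and 4.09 FPKM in knockout, 2.74 and 3.35 in heterozygous and 2.77 and 2.74 in wildtype libraries. The groups did not overlap, as for 13% of all tested genes, and genes named for a small p tend to show such a gap. The log2 change of Hey2 was 0.42 ± 0.081 (limma, adjusted p = 0.101). Notch1, a Notch receptor whose exons overlap 0610009E02Rik and Gm13568 on the other strand, was at 3.73, 3.56 and 3.40 FPKM in knockout, 2.85 and 2.37 in heterozygous and 2.65 and 2.52 in wildtype libraries, again with no overlap (0.34 ± 0.076, adjusted p = 0.145). With voom on the recovered reads both passed, with adjusted p = 0.0380 for Hey2 and 0.0182 for Notch1, together with Podxl. In the voom fit of 15002 genes these were 3 of 67 list genes, where 1% of all its genes passed. Notch signalling also acts in Müller glia and neurons of the retina, and no value here assigns the reads of Hey2 and Notch1 to vessels.

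Of 15 tested genes of norrin signalling and the blood-retina barrier, 11 were higher and 4 lower for knockout against all controls (median 0.034, 0 called). Fzd4, the norrin receptor needed for retinal vessels, was at 4.76 ± 0.522 FPKM in knockout (SD, n = 3) and 4.10 ± 0.308 in all controls (n = 4; log2 change 0.18, adjusted p = 0.452). Slc2a1, the glucose transporter GLUT1 of barrier endothelium, pigment epithelium and retinal cells, whose exons overlap Gm12868, was at 76.2 ± 6.78 in knockout and 69.2 ± 4.27 in all controls (0.13, adjusted p = 0.510).

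Of 17 tested genes of the hypoxia response, 6 were higher and 11 lower for knockout against all controls (median -0.0075, 0 called). Hif1a, the oxygen-regulated subunit of HIF-1, was at 83.2 ± 3.48 FPKM in knockout and 87.5 ± 11.9 in all controls (adjusted p = 0.835). Epas1 (HIF-2 alpha) was at 31.9 ± 0.819 in knockout (n = 3) and 26.8 ± 2.34 in heterozygous libraries (n = 2; log2 change 0.25, adjusted p = 0.296). The wildtype libraries, at 30.6 and 30.8, were close to knockout, so that difference lay in the heterozygous pair, and against all controls the change was 0.15 (adjusted p = 0.464). Ero1l, a HIF target that works in protein folding, was at 11.5 ± 0.0844 in knockout and 13.4 ± 0.488 in wildtype libraries (n = 2; -0.20, adjusted p = 0.475). Neither gene passed.

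Of 10 tested inhibitors of angiogenesis, 9 were higher and 1 lower for knockout against all controls (median 0.15, 0 called). Vash1, vasohibin 1, a secreted inhibitor whose protein also removes the last tyrosine of alpha-tubulin, was at 16.5, 20.3 and 15.2 FPKM in knockout, 12.8 and 13.4 in heterozygous and 13.6 and 11.8 in wildtype libraries. The groups did not overlap, as for 13% of all tested genes, in a gene named for its small p. The log2 change of 0.39 ± 0.099 did not pass (limma, adjusted p = 0.201). Adamts1, an extracellular protease with anti-angiogenic activity, was at 7.86 ± 0.610 FPKM in knockout (SD, n = 3) and 5.49 ± 1.16 in heterozygous libraries (n = 2), a log2 change of 0.46 ± 0.12 (adjusted p = 0.282).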

How the data were processed

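Polyadenylated RNA of 7 mouse eye libraries (3 knockout, 2 heterozygous and 2 wildtype for Agbl5) was sequenced. Per the labels' protocols this was with an NEBNext Ultra kit that does not mark strand. Reads where genes overlap thus cannot be assigned by strand, and how they were counted was not given. The authors deposited 1 table of FPKM for 54532 genes. The builds mm10 and GRCm38 and the tools Bowtie2 2.0.6, TopHat2 2.0.9, DESeq and HTSeq are named in the submitters' processing notes, and their settings were not given in the sources used here. Gene models and exon lengths came from GENCODE M21. With them 97.3% of values above 0 and under 1000 reads were whole reads within 0.01.

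FPKM were tested as log2(FPKM + 1) with limma 3.58.1 in R 4.3.3 (trended empirical Bayes), where the mean over libraries reached 1 FPKM, with Benjamini-Hochberg adjustment over all 15472 and a threshold of 0.05. A fit of 3 genotypes gave 3 comparisons, and a fit of 2 groups gave knockout against all controls. Genes named from the further lists were those called, otherwise the 2 with the smallest p of each list, plus Hif1a, Epas1, Slc2a1, Plvap, Angpt2, Nrp1, Fzd4 and Acta2. The members and lists were chosen with earlier results of these data known. Alternatives were another pseudocount, no filter, the TPM scale, voom on recovered reads, marker covariates, each library left out, both lens-rich libraries left out and the replicate number as a block. A voom fit on genes with at least 70 reads was chosen after seeing the data, so that Tie1 and Cdh5 could be fitted. The test was checked on simulated data. Tie1 and Cdh5 were below the minimum level, and some RefSeq entries were not used here.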

Additional observations from a re-analysis of the deposited data

Results flagged for a closer look

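Over 28 groups of the 4 control libraries, 1 for each gene described, 3 held a library far from the others by Dixon's criterion, where chance alone gives about 1 in 20. Cdh5 was at 0.678 FPKM in wildtype 2, against 0.358 to 0.371 in the other 3 control libraries. Hey2 was at 3.35 FPKM in heterozygous 2, against 2.74 to 2.77 in the other 3. Higd1b was at 0.585 FPKM in heterozygous 1, against 1.18 to 1.29 in the other 3. The cause of these was not tested.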

How the results depend on the processing

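The 8 tested genes of the set had 0 calls in every alternative run, and over their 568 alternatives the lowest adjusted p was 0.256 (Kdr, knockout against heterozygous, without heterozygous 2). The sign of a log2 change turned in 54 of the 568, none with a call on either side, and no turned value exceeded 0.23 in size. The TPM scale moved the median of all genes to -0.16 for knockout against wildtype, -0.074 for knockout against heterozygous, -0.083 for heterozygous against wildtype and -0.12 when knockout was set against all controls, and all its values carry that shift. On it the changes turned for knockout against wildtype to -0.056 for Pdgfrb, -0.082 for Rgs5 and -0.15 for Vegfa; for knockout against heterozygous to -0.021 for Kdr, -0.014 for Flt1 and -0.0057 for Vegfa; and for knockout against all controls to -0.079 for Cldn5, -0.0075 for Rgs5, -0.0799 for Vegfa and -0.076 for Plvap. Without both lens-rich libraries they turned to -0.0298 for Pdgfrb (knockout against wildtype), -0.0083 for Vegfa (knockout against heterozygous), -0.14 for Kdr, 0.11 for Tek and 0.021 for Vegfa (heterozygous against wildtype), and 0.043 for Hif1a and -0.15 for Plvap (knockout against all controls). With the lens list as a covariate they turned to -0.0065 for Pdgfrb (knockout against wildtype) and 0.022 for Tek (heterozygous against wildtype). With the pigment epithelium list they turned to -0.0024 for Pdgfrb (knockout against wildtype), 0.0038 for Tek (knockout against heterozygous) and 0.0600 for Vegfa (heterozygous against wildtype). With the Y-linked list they turned to 0.0039 for Tek and -0.034 for Vegfa (knockout against wildtype), and 0.057 for Pecam1 and 0.15 for Tek (heterozygous against wildtype). With 1 library left out, changes for knockout against wildtype ran from -0.18 to 0.087 for Tek, -0.0298 to 0.16 for Pdgfrb, -0.027 to 0.13 for Rgs5 and -0.14 to 0.16 for Vegfa. For knockout against heterozygous they ran from -0.23 to 0.35 for Kdr, -0.12 to 0.24 for Flt1, -0.16 to 0.074 for Tek, -0.0202 to 0.30 for Pdgfrb and -0.013 to 0.17 for Vegfa. For heterozygous against wildtype they ran from -0.049 to 0.0197 for Pecam1, -0.14 to 0.43 for Kdr, -0.33 to 0.026 for Flt1, -0.14 to 0.13 for Tek, -0.22 to 0.10 for Pdgfrb and -0.22 to 0.078 for Vegfa. For knockout against all controls they ran from -0.098 to 0.13 for Cldn5, -0.10 to 0.026 for Flt1, -0.15 to 0.069 for Tek, -0.00102 to 0.19 for Pdgfrb, -0.036 to 0.12 for Vegfa, -0.12 to 0.021 for Hif1a and -0.10 to 0.13 for Plvap. Where a genotype kept 1 library, it was taken to vary like the others.

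The count of calls in the 7 further lists for knockout against all controls was 1 as reported (Podxl). With voom on recovered reads it became 3 with either minimum, 3 of 67 and 3 of 102 list genes. Of all genes, 150 of 15002 and 152 of 17129 passed there. With the pigment epithelium list as a covariate it became 2 of 70 (Podxl and Thbs1), where 101 of 15472 of all genes passed. Without that covariate Thbs1, of the inhibitors of angiogenesis, had a log2 change of 0.71 ± 0.21 that did not pass (limma, adjusted p = 0.267). The count became 0 of 70 on the TPM scale, without both lens-rich libraries, and with the lens list or the Y-linked list as a covariate. Of all 15472 genes 63, 48, 92 and 71 passed there in that order, against 95 in the reported fit. With any 1 library left out it was also 0 of 70, where 45 to 90 of all genes passed. At these shares 0 of 70 does not set the lists apart from the rest. Same-numbered libraries were not paired by the labels. Their deviations correlated by 0.43 for knockout 1 with heterozygous 1, the 2 lens-rich libraries, and by 0.27 for knockout 2 with heterozygous 2. The other pairs lay between -0.023 and 0.092. In a genotype of 2 libraries the deviations mirror each other, so these values cannot decide whether the libraries were paired. With the replicate block the count of list calls for knockout against all controls was 0, where 38 of all 15472 genes passed instead of 95. Podxl kept a change of 0.28 with an adjusted p of 0.260 (limma), and Cldn5 turned to -0.098 for knockout against all controls. Among the 8 tested genes of the set and the further lists no other call changed. The causes were not tested. Read depth limits Tie1, Cdh5, Cldn5 and Tek most.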
